A study of Mus musculus with 24 samples.

Results

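The RNA that a scrambled mimic left in the pulldown was compared with the input, the RNA of cells transfected with that mimic before any pulldown. Members were chosen by their labels alone, namely 4 whole-cell libraries of the scrambled pulldown and 4 of the scrambled input, 8 of the 24 libraries of the series. All came from NIH3T3 cells, an immortalised line of mouse embryonic fibroblasts. The cells were reverse transfected at 10 nM with a mimic carrying 3-cyanovinylcarbazole (CNVK), a nucleoside that light can crosslink to the opposite strand. They were topped up with medium after 24 h and harvested after a further 8 h. The other groups used here differed by the mimic, which carried the miR-29b sequence in 4 pulldown and 4 input libraries, or by fractionation, with 1 cytoplasmic and 1 nuclear library for each of the pulldown and input of the scrambled mimic. Libraries were made from 5 ng of RNA, primed with random hexamers and oligo-dT; the miR-29b input replicate 4 alone took 6 ng. Every group was transfected and there was no untransfected one, so nothing here separates an effect of the mimic on the cells from the state of unperturbed cells. The labels do not state separate cultures for the libraries of a group, and every p-value rests on the spread among these libraries, which may be technical.

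A pulldown of this kind recovers RNA crosslinked to a mimic together with RNA that stays on the capture material by itself. A scrambled mimic keeps the chemistry and changes the base order. It can still crosslink RNA that pairs with its own sequence, which was not used here, so both kinds cannot be told apart in its pulldown. A microRNA finds its targets mainly through its seed, bases 2 to 8, and the miR-29 family is known in fibroblasts for repressing collagens and other matrix genes. Long RNAs held in the nucleus, such as Malat1 of nuclear speckles and Neat1 of paraspeckles, are bound by many proteins and are known from other work to turn up in control precipitates.

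The sequence that the scrambled mimic lacks is shown first, with the seed in capitals, since the comparison is defined by its absence. In RefSeq's table of GRCm38.p6, 3 of the distinct mature mouse miRNAs carry that seed.
mmu-miR-29b-3p: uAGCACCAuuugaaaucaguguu
mmu-miR-29a-3p: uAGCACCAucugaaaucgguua
mmu-miR-29c-3p: uAGCACCAuuugaaaucgguua
The mature miR-29b-3p lies at chr1:195037091-195037113 on the plus strand in Mir29b-2 and at chr6:31063025-31063047 on the minus strand in Mir29b-1.

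The listed counts came to between 7409157 and 34182006 in the scrambled pulldown libraries and to between 22664746 and 39735175 in the inputs. Pulldown replicate 1 had the fewest, and its listed genes made up 48.9% of the authors' library total, against 67.4% to 72.2% in the other pulldowns and 74.996% to 77.4% in the inputs. It also stood apart from the other pulldowns, with a correlation of log2 levels of 0.930 to 0.948 against 0.989 to 0.993 among replicates 2 to 4. Input replicate 4 stood apart likewise, at 0.937 to 0.942 against 0.984 to 0.991. In the column headers replicates 1 to 3 bear the word lysed and replicate 4 the word intact, which the labels do not explain. Of 1275 genes that differed over 2-fold between pulldowns 1 and 2, pulldown 3 lay between these in 1153 and pulldown 4 in 1183, nearer to pulldown 2. Between inputs 1 and 2, 120 genes differed so far, and input 3 lay between these in 113. Whether pulldowns 3 and 4 are independent of pulldowns 1 and 2 was not tested, and n = 4, its SEs and its p-values assume that they are. Values without these libraries stand beside the main counts and beside the lists that they move most. As a check of the cell type, 14 of 16 fibroblast markers were tested, and their summed level was 4549 to 5226 CPM (read counts scaled to each library's effective size by edgeR) in the pulldowns and 5158 to 5974 CPM in the inputs. Markers of muscle, epithelium and endothelium summed to at most 6.82 CPM in any of the 8 libraries. Leukocyte markers reached 40.9 CPM and neural markers 21.7 CPM, both in inputs. Adipocyte markers, 8 of 10 tested, summed to 1020 to 1644 CPM in the pulldowns and 479.51 to 1239 CPM in the inputs; their part in the results was not tested.

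Of 12915 genes tested, 2392 were higher in the scrambled pulldown than in its input and 2246 lower at an adjusted p under 0.05 in edgeR's quasi-likelihood test, which is 18.5% and 17.4%. In 2757 genes (21.3%) the 4 pulldown libraries lay above all 4 inputs, and in 2531 (19.6%) below. At least 2-fold changes were called in 1400 and 741 genes. The median log2 difference over all genes was 0.03. Without replicate 4 of every group 3552 genes were higher and 3386 lower (27.7% and 26.4% of those tested), and 2333 of the 2392 and 2181 of the 2246 were among these. Without replicate 4 of the scrambled groups alone the counts were 1902 and 1723 (14.7% and 13.3%), and with only pulldowns 1 and 2 in that group they were 1282 and 1089 (9.74% and 8.27%). Without pulldown 1 they were 2349 and 2522 (18.1% and 19.4%). No gene called in the pooled comparison had the opposite sign in the first 3 of these subsets.

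Several nuclear long noncoding RNAs were recovered. Malat1 (ENSMUSG00000092341; chromosome 19, 5795690 to 5802672) was at 6419, 3259, 3496 and 3538 CPM in pulldowns 1 to 4 and at 93.1, 117, 102 and 289 CPM in inputs 1 to 4. The groups were far apart, and pulldown 1 and input 4 were each the highest of their group. The difference was 27.8-fold (log2 4.80 ± 0.61 SE, n = 4 per group, edgeR adjusted p = 3.77e-05), and 5.42 on the log2 scale without replicate 4 of every group. Neat1 (ENSMUSG00000092274; chromosome 19, 5824708 to 5845480), the scaffold of paraspeckles, was at 528, 618, 608 and 613 CPM in the pulldowns and 53.6, 49.5, 53.9 and 19.9 CPM in the inputs. Its pulldown libraries were close to each other, and input 4 was the lowest. It was 13.4-fold higher (log2 3.74 ± 0.28 SE, edgeR adjusted p = 1.01e-06). Airn, a nuclear transcript that overlaps Igf2r in antisense, was at 4.86 to 6.58 CPM against 1.51 to 2.14 CPM (log2 1.65 ± 0.28 SE, edgeR adjusted p = 0.000352), and Igf2r itself was higher too (log2 1.39). Of 6 nuclear-retained RNAs tested, 4 were higher (66.7%, against 18.5% of all genes) and 0 lower, with a median log2 of 1.99. The fourth was 2900097C17Rik. Tug1 (log2 0.36, adjusted p = 0.627) and Pvt1 (log2 −0.30, adjusted p = 0.186) did not pass. The count of 4 higher was the same without replicate 4 of every group, without pulldown 1, and with only pulldowns 1 and 2. All genes gave 27.7%, 18.1% and 9.74% higher there. Without replicate 4 of every group 1 of the 6 was called lower, against 26.4% of all genes. In the pooled comparison 1 of the 6 had all pulldowns below all inputs, against 19.6% of all genes.

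Dnm3os (ENSMUSG00000078190; chromosome 1, 162217623 to 162225550), a noncoding RNA that is the precursor of miR-199a and miR-214, showed a large difference with even pulldown libraries. It was at 39.3, 48.9, 44.6 and 37.4 CPM in the pulldowns and at 0.115, 0.183, 0.258 and 1.02 CPM in the inputs. The 103-fold difference (log2 6.69 ± 1.22 SE, edgeR adjusted p = 0.000659) rose to 7.81 on the log2 scale without replicate 4 of every group. Its mature miRNAs are shown because Dnm3os had the largest log2 difference of the tested genes with a RefSeq position, with seeds in capitals.
mmu-miR-199a-5p: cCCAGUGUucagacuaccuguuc
mmu-miR-199a-3p: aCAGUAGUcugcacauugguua
mmu-miR-214-5p: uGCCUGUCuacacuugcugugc
mmu-miR-214-3p: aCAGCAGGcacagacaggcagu
None of these 4 seeds is the seed of miR-29b. Dnm3os overlaps the gene Dnm3 on the other strand, and whether counting used strand is not given in the sources used here, so reads of both cannot be told apart. Dnm3 was at 0.543 to 4.50 CPM in the pulldowns and 0.185 to 0.593 CPM in the inputs. Mir143hg, the host transcript of miR-143 and miR-145, was at 8.18, 4.17, 4.44 and 3.93 CPM in the pulldowns and 0.267 to 0.617 CPM in the inputs (log2 3.46 ± 0.37 SE, edgeR adjusted p = 1.21e-05). Gm26917, listed as a processed transcript, rose from between 0.535 and 14.7 CPM to between 212 and 462 CPM (log2 6.22 ± 1.27 SE, edgeR adjusted p = 0.00148). Input 4 held its highest input value.

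**Figure D1:**
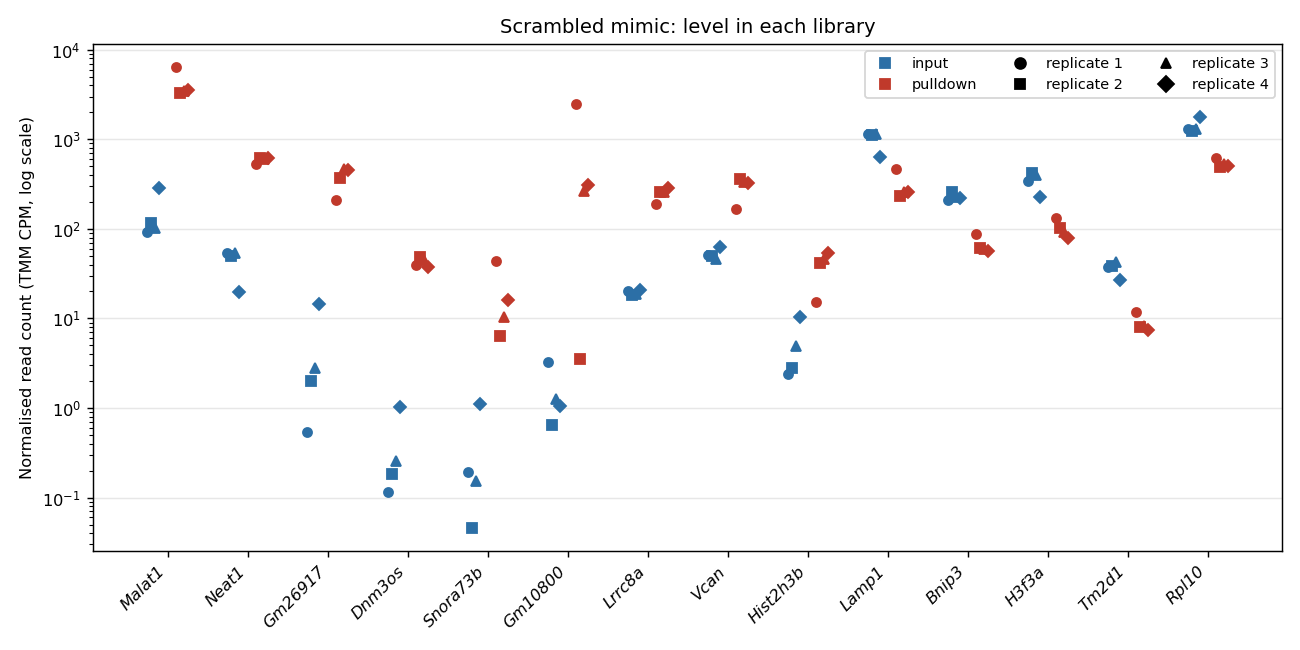
Normalised read count (CPM, log scale) of 14 RNAs in each scrambled input (blue) and scrambled pulldown (red) library, with a marker per replicate. Malat1, Neat1 and Dnm3os stand above their inputs in all 4 pulldowns, Gm10800 spreads from 3.56 to 2507 CPM across the pulldowns, and Tm2d1, Bnip3 and Rpl10 lie below their inputs.

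By biotype, as the authors' table gives it, the long noncoding classes and pseudogenes were lower less often than all genes were, while their shares of higher genes lay near or below that of all genes. Of 219 lincRNAs tested 45 were higher (20.5%) and 7 lower (3.20%), with a median log2 of 0.54, against 18.5% and 17.4% of all genes. Antisense RNAs gave 29 higher (20.3%) and 13 lower of 143, and processed transcripts 24 (16.7%) and 3 of 144. Pseudogenes gave 87 (10.6%) and 42 of 817, with a median of 0.01. Protein-coding genes split evenly, 2173 higher and 2180 lower of 11501. Without replicate 4 of every group lincRNAs gave 77 and 18 and processed transcripts 51 and 7, against 27.7% and 26.4% of all genes. The shares called also varied with mean level in the main comparison. Of 5 equal sets of all genes by level, the lowest gave 16.1% higher and 2.09% lower, and the highest 9.99% and 36.4%. Whether the level of the noncoding classes and pseudogenes accounts for their shares was not tested.

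Many small structured RNAs were higher, though not in every class. Of 28 small nucleolar RNAs (snoRNAs, which guide the modification of other RNAs in the nucleolus) 16 were higher (57.1%) and 0 lower. Their median log2 was 3.19, and 18.5% of all genes were higher. Snora73b was at 43.9, 6.41, 10.4 and 16.2 CPM in the pulldowns and at 0.191, 0.0456, 0.155 and 1.11 CPM in the inputs (log2 5.58 ± 1.33 SE, edgeR adjusted p = 0.00408). It lies within the gene of Snhg3, whose own level did not pass (log2 0.22). Rnu3a, a U3 RNA of pre-rRNA cleavage, was at 22.0 CPM in pulldown 1 and 1.73 to 4.39 CPM in the others, against 0.0258 to 0.679 CPM in the inputs (log2 4.89 ± 1.02 SE). Scarna2, of the Cajal bodies, was at 3.41 to 8.58 CPM against 0.0764 to 0.771 CPM (log2 4.60 ± 0.92 SE). Its lowest pulldown value was that of pulldown 1, unlike Rnu3a and Snora73b. All 28 snoRNAs together held 126, 49.2, 54.3 and 68.1 CPM in the pulldowns and 3.90, 2.60, 3.25 and 16.2 CPM in the inputs. Their median was 0.0764, 0.0228, 0.0258 and 0.447 CPM in inputs 1 to 4. In those libraries 3 counts were 0.115, 0.137, 0.0775 and 0.0925 CPM. The inputs together held 48 counts of Snora73b, 30 of Rnu3a and 33 of Scarna2, so the sizes of these differences are uncertain. Genes this low in the inputs could hardly be called lower, and may have passed the filter through libraries where they were high. The count of 0 lower was thus largely fixed in advance, and 57.1% against 18.5% is not a like comparison. Without pulldown 1, 14 snoRNAs were higher, with only pulldowns 1 and 2 there were 9, and without replicate 4 of every group 23. All genes gave 18.1%, 9.74% and 27.7% higher in these subsets.

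Spliceosomal and mitochondrial small RNAs went the same way. Of 5 small nuclear RNAs 3 were higher (60%, against 18.5% of all genes). Among them was Gm25939, at 14.3 CPM in pulldown 1, 0.577 to 2.45 CPM in the others and 0.0456 to 0.524 CPM in the inputs (log2 4.02 ± 1.01 SE, edgeR adjusted p = 0.00581). Of 9 mitochondrial tRNAs 5 were higher (55.6%) and 0 lower, with a median of 1.95. The tRNA for glutamine, mt-Tq, was at 16.9, 1.83, 3.22 and 3.07 CPM against 0.0382 to 0.387 CPM (log2 4.43 ± 1.04 SE). The tRNA for tyrosine, mt-Ty, was at 6.14 CPM in pulldown 1, 0.441 to 0.966 CPM in the others and 0.0617 to 0.229 CPM in the inputs (log2 3.69 ± 0.83 SE). The inputs together held 35 counts of Gm25939, 34 of mt-Tq and 16 of mt-Ty, so these sizes are uncertain too. Like the snoRNAs, such genes could hardly be called lower, so their shares and that of all genes are not a like comparison. For most long RNAs of the same organelle no difference passed. Of 13 mitochondrial mRNAs 0 passed in either direction with edgeR or DESeq2, and 0 had an unadjusted p under 0.05; mt-Co1, a cytochrome oxidase subunit, ranged from 9620 CPM in pulldown 1 to 40222 CPM in pulldown 2 against 13036 to 23807 CPM in the inputs. Without pulldown 1, which held its lowest value, mt-Co1 was higher (log2 0.81, edgeR adjusted p = 0.0312) and the other 12 did not pass. The small ribosomal RNA mt-Rnr1 was lower (log2 −0.97 ± 0.24 SE, edgeR adjusted p = 0.00504), while mt-Rnr2 did not pass (log2 0.26). Rmrp, the RNA of RNase MRP, was at 58.0 to 69.2 CPM against 12.4 to 46.1 CPM (log2 1.44 ± 0.52 SE, edgeR adjusted p = 0.0409); its adjusted p was over 0.05 when any of the 4 pulldowns or any of inputs 1 to 3 was left out, at 0.0715 to 0.146. Of 21 RNAs of its biotype, misc_RNA, 4 were higher (19.0%, near the 18.5% of all genes) and 0 lower. Without pulldown 1 there were 0 higher, and with only pulldowns 1 and 2 there was 1, against 18.1% and 9.74% of all genes. Without replicate 4 of every group there were 15, against 27.7%.

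As shares of the listed counts these classes were small. The nuclear-retained RNAs held 0.520% ± 0.116 (SD, n = 4) of the pulldown libraries and 0.0228% ± 0.0053 of the inputs, with no overlap. The lincRNAs without Gm26924 held 0.683% ± 0.114 and 0.139% ± 0.0208. Gm26924, the gene with the most counts, is itself listed as a lincRNA and held 24.3% ± 7.86 and 24.6% ± 3.68, which overlapped. The snoRNAs held 0.00797% ± 0.00317 and 0.00060% ± 0.00054, a 13.3-fold ratio of the means. The small nuclear RNAs held 9.47-fold more in the pulldown, over an input mean of only 0.000102%. Each of these shares but that of Gm26924 had an exact permutation p of 0.0286, two-sided, the smallest that 4 against 4 allow, and 0.0571 after adjustment over 22 such shares, so none passed.

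**Figure D2:**
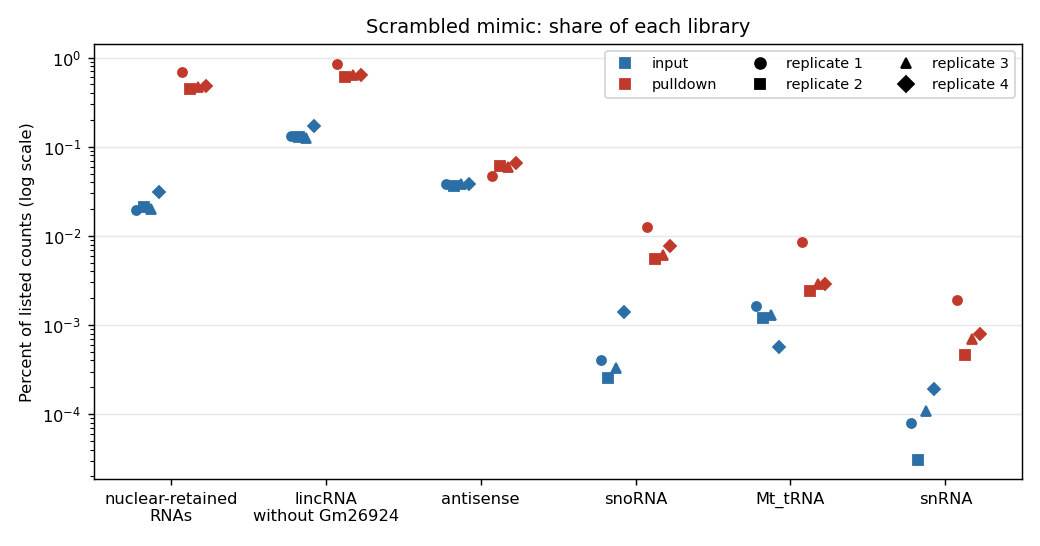
Percent of the listed counts (log scale) held by 6 classes of RNA in each scrambled input (blue) and pulldown (red) library, with a marker per replicate. In each class the 4 pulldowns lie above the 4 inputs, and pulldown 1 is the highest in every class but the antisense RNAs, where it is the lowest pulldown.

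A set of predicted genes had the largest fitted differences, and pulldown 1 held the highest value of each. Gm10800 was at 2507, 3.56, 265 and 309 CPM in the pulldowns and at 3.25, 0.639, 1.27 and 1.05 CPM in the inputs (log2 8.95 ± 1.74 SE, edgeR adjusted p = 0.00103). Pulldown 2 was barely above input 1, and pulldown 1 was the highest by far. Gm10801 followed the same order, at 349, 0.543, 38.8 and 45.9 CPM against at most 0.420 CPM in the inputs. Gm26870 was at 237, 0.577, 25.1 and 33.6 CPM and Gm21738 at 315, 2.95, 37.7 and 41.6 CPM, with inputs of at most 0.284 CPM in either. Gm10718 was at 61.8, 0.237, 7.41 and 8.63 CPM, while 3 of the 4 inputs held no count and input 1 held 0.0382 CPM. Without pulldown 1 the log2 difference was 6.94 for Gm10800, 7.04 for Gm10801, 7.20 for Gm26870 and 6.95 for Gm21738. All 5 still passed without it. None of the 5 is in the RefSeq table used, so no position is given. How the authors' counting divided reads among like copies is not given in the sources used here, so the single values are uncertain.

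Among protein-coding genes, Lrrc8a (ENSMUSG00000007476; chromosome 2, 30237769 to 30263790), a subunit of the volume-regulated anion channel, had the smallest adjusted p of the named genes. It was at 191, 259, 259 and 288 CPM in the pulldowns and at 20.2, 18.3, 19.0 and 20.9 CPM in the inputs. Both groups were tight and far apart. The difference was 12.7-fold (log2 3.67 ± 0.18 SE, edgeR adjusted p = 1.70e-08), and between 3.52 and 3.80 under the 20 alternatives. Edf1, a transcriptional coactivator with a role at collided ribosomes, was at 303 to 308 CPM in the pulldowns and 93.2 to 104 CPM in the inputs (log2 1.62 ± 0.23 SE, edgeR adjusted p = 8.83e-05).

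Genes of the matrix and of cell adhesion were more often higher than lower, where all genes gave 18.5% and 17.4%. Of 40 matrix and secreted glycoproteins 12 were higher (30.0%) and 5 lower (12.5%), with a median log2 of 0.29. Vcan, the proteoglycan versican, was at 168, 365, 330 and 324 CPM in the pulldowns and 46.7 to 62.9 CPM in the inputs (log2 2.49 ± 0.27 SE, edgeR adjusted p = 1.15e-05). Of 17 collagens 5 were higher (29.4%) and 0 lower, and 11 had all pulldowns above all inputs. Col12a1, a fibril-associated collagen, was at 9.41 to 17.8 CPM against 2.14 to 4.04 CPM (log2 2.41 ± 0.44 SE). Col6a3, a beaded-filament collagen, was at 265 to 304 CPM against 88.6 to 112 CPM (log2 1.47 ± 0.33 SE). Col1a1, the main fibrillar collagen of fibroblasts, was at 248, 425, 417 and 420 CPM against 230 to 257 CPM and did not pass (log2 0.63 ± 0.49 SE, adjusted p = 0.342). Of 18 cadherins and protocadherins 9 were higher and 0 lower. Pcdh18 was at 7.50 CPM in pulldown 1 and 15.8 to 19.8 CPM in the others, against 5.11 to 8.76 CPM (log2 1.22 ± 0.28 SE, edgeR adjusted p = 0.00368). Without replicate 4 of every group, where all genes gave 27.7% and 26.4%, the glycoproteins gave 15 higher and 11 lower, the collagens 7 and 1 and the cadherins 12 and 2. Without pulldown 1, where all genes gave 18.1% and 19.4%, they gave 13 and 5, 3 and 0, and 6 and 0.

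Several lists of genes that handle RNA had a larger share of higher genes than the 18.5% of all genes and a smaller share of lower ones than the 17.4%. Of 29 genes of the miRNA-induced silencing complex, miRNA processing and deadenylation 11 were higher (37.9%) and 4 lower (13.8%), with a median log2 of 0.49. Dcp2, the decapping enzyme, was at 98.6, 176, 165 and 163 CPM against 32.4 to 37.7 CPM (log2 2.09 ± 0.26 SE, edgeR adjusted p = 3.46e-05). Dgcr8, the partner of Drosha, was at 16.5 to 19.5 CPM against 7.49 to 8.24 CPM (log2 1.15 ± 0.15 SE). Of 43 splicing factors 12 were higher (27.9%) and 4 lower, with a median of 0.02. Snrnp70, the U1 protein, was at 28.9 to 33.5 CPM against 7.80 to 11.2 CPM (log2 1.74 ± 0.16 SE, edgeR adjusted p = 3.76e-06). Prpf8, of the spliceosome core, was at 37.9 CPM in pulldown 1 and 80.1 to 84.1 CPM in the others, against 24.6 to 31.2 CPM (log2 1.40 ± 0.22 SE). Of 30 ribosome biogenesis genes 9 were higher (30.0%) and 3 lower, among the former the nucleolar protein Ncl (log2 1.31 ± 0.13 SE). Of 309 tested zinc finger genes of the Zfp series 92 were higher (29.8%) and 20 lower (median 0.46), with Zfp839 at 8.32 to 11.8 CPM against 2.41 to 3.86 CPM (log2 1.57 ± 0.20 SE). Solute carriers lay near the shares of all genes, with 24 of 163 higher (14.7%) and 29 lower (17.8%). Among them Slc5a3, the myo-inositol carrier, was at 68.7, 177, 156 and 151 CPM against 24.1 to 30.8 CPM (log2 2.35 ± 0.28 SE).

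**Figure D3:**
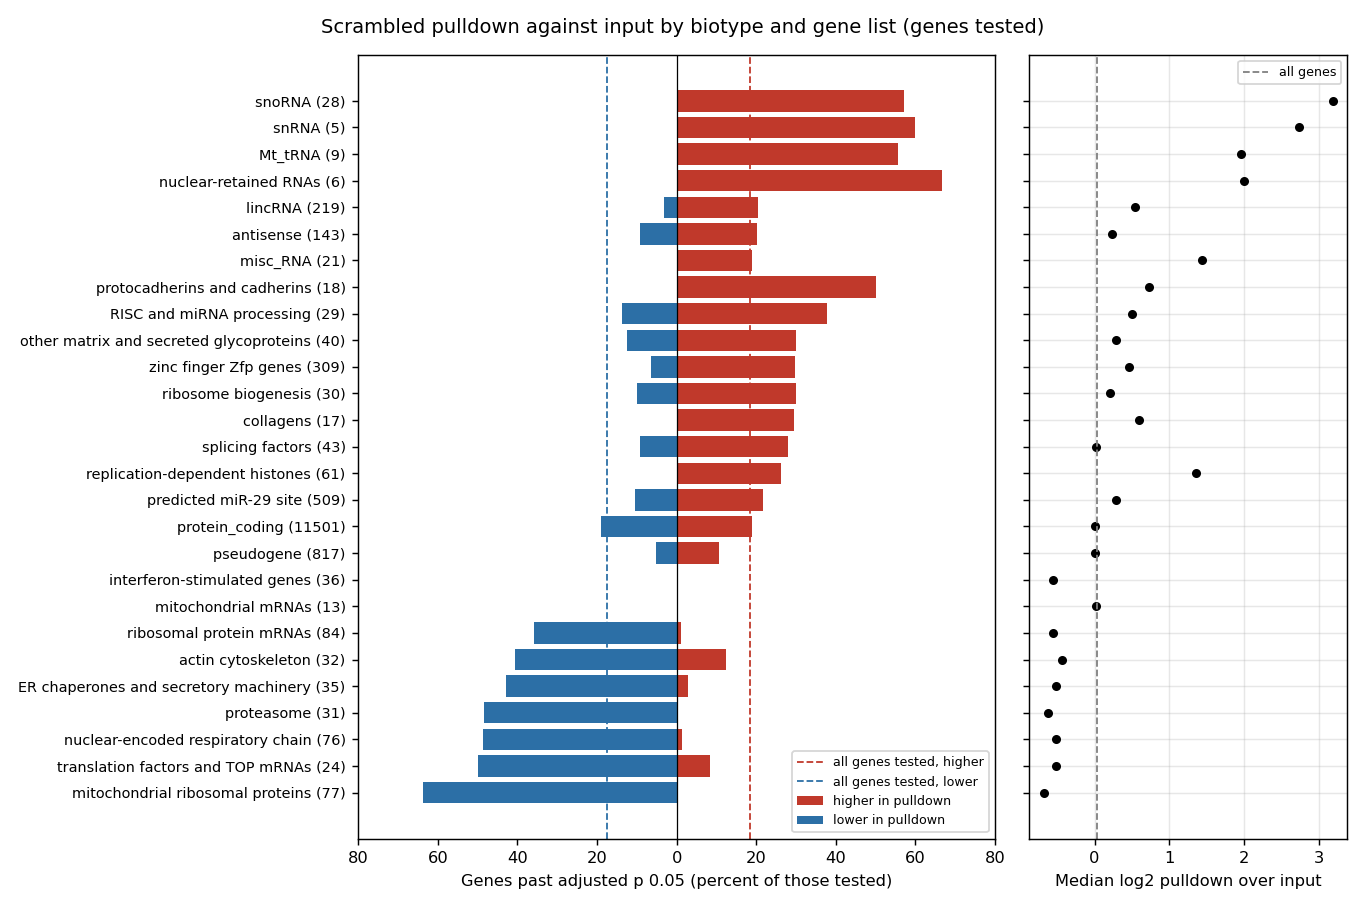
Left, percent of the genes tested in each biotype or gene list that were higher (red, to the right) or lower (blue, to the left) in the scrambled pulldown at an adjusted p under 0.05, with the shares over all genes as dashed lines (18.5% and 17.4%). Right, the median log2 difference of each group, with that of all genes (0.03) as a dashed line; snoRNAs and mitochondrial tRNAs lie at the high end and mitochondrial ribosomal proteins at the low end.

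The lists with the largest shares of lower genes were those of mitochondria, protein synthesis, protein turnover and secretion. Of 77 mitochondrial ribosomal proteins 49 were lower and 0 higher (median log2 −0.68), against 17.4% of all genes. Mrps33 was at 5.18 to 6.97 CPM in the pulldowns and 13.2 to 19.0 CPM in the inputs (log2 −1.42 ± 0.17 SE, edgeR adjusted p = 2.92e-05), and Mrpl17 at 44.2 to 55.8 CPM against 99.4 to 108 CPM. Of 76 nuclear-encoded genes of the respiratory chain 37 were lower and 1 higher (median −0.52). Atp5f1, of the ATP synthase stalk, was at 54.7, 55.5, 54.7 and 55.6 CPM in the pulldowns and 149, 144, 154 and 148 CPM in the inputs. Both groups were narrow, and the difference of −1.43 (log2, ± 0.11 SE, edgeR adjusted p = 1.25e-06) was between −1.48 and −1.39 under all 20 alternatives. Uqcrfs1, the Rieske protein of complex III, was at 35.6 to 43.9 CPM against 82.3 to 99.4 CPM. Of 31 proteasome genes 15 were lower and 0 higher (median −0.62), with Psma5 at 48.2 to 61.1 CPM against 100.4 to 128 CPM and Psma3 at 62.8 to 82.9 CPM against 141 to 144 CPM. Of 35 genes of endoplasmic reticulum chaperones and secretion 15 were lower and 1 higher. Manf, a secreted stress-induced factor, was at 48.5 to 56.9 CPM against 103 to 108 CPM, and Srp14, of the signal recognition particle, at 68.2 to 73.4 CPM against 130 to 163 CPM.

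Of 84 cytosolic ribosomal protein mRNAs tested 30 were lower (35.7%, against 17.4% of all genes) and 1 higher, while 53 did not pass. The median log2 difference was −0.55. Rpl10 was at 621, 490, 533 and 502 CPM in the pulldowns and 1307, 1236, 1319 and 1790.5 CPM in the inputs (log2 −1.40 ± 0.21 SE, edgeR adjusted p = 0.000114). Rpl15 was at 190 to 269 CPM against 452 to 733 CPM. The member that was higher, Rpl24, was at 12.8 to 13.6 CPM against 5.54 to 6.71 CPM (log2 1.10 ± 0.17 SE). Of 24 translation factors and related mRNAs with a terminal oligopyrimidine tract 12 were lower and 2 higher, with Btf3 at 85.7 to 99.1 CPM against 204 to 222 CPM. The median CPM over the ribosomal protein mRNAs was 592 in pulldown 1 and 365 to 447 in the other pulldowns, and 521 to 599 in inputs 1 to 3 and 884 in input 4. The count lower was 14 (16.7%) without replicate 4 of the scrambled groups, near the 13.3% of all genes. With only pulldowns 1 and 2 there were 10 (11.9%, against 8.27% of all genes), and without pulldown 1 there were 40 (47.6%, against 19.4%).

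Among the 10 lowest log2 differences by the naming rule were Tm2d1, Spg21, Med30, Bnip3, H3f3a, Twist1 and Lamp1. Tm2d1 (ENSMUSG00000028563; chromosome 4, 98355370 to 98383265), a membrane protein that binds amyloid beta, was at 11.9, 7.97, 8.31 and 7.46 CPM in the pulldowns and at 37.4, 38.6, 42.2 and 27.0 CPM in the inputs (log2 −2.04 ± 0.19 SE, edgeR adjusted p = 4.83e-06). Spg21, mutated in a form of spastic paraplegia, was at 71.2 CPM in pulldown 1 and 39.9 to 41.6 CPM in the others, against 159.75 to 192 CPM. Med30, of the Mediator complex, was at 10.0 to 12.8 CPM against 36.2 to 44.5 CPM (log2 −1.82 ± 0.13 SE). Bnip3, a mitophagy receptor, was at 87.1, 60.8, 58.9 and 57.3 CPM against 208 to 257 CPM (log2 −1.80 ± 0.16 SE). Twist1, a mesenchymal transcription factor, was at 11.8 to 13.9 CPM against 38.4 to 46.2 CPM (log2 −1.74 ± 0.17 SE). H3f3a, which encodes the replacement histone H3.3, was at 79.7 to 133 CPM against 227 to 422 CPM (log2 −1.78 ± 0.26 SE). Lamp1, a lysosomal membrane protein, was at 232 to 469 CPM against 635.5 to 1158 CPM; it passed (log2 −1.73 ± 0.41 SE, edgeR adjusted p = 0.00392) except with only pulldowns 1 and 2 (log2 −1.54, edgeR adjusted p = 0.0722). The losses were smaller than the gains, as Tm2d1 fell 4.12-fold.

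Replication-dependent histone mRNAs, which end in a stem-loop in place of a poly(A) tail, went the other way from H3f3a. Of 61 tested 16 were higher (26.2%, against 18.5% of all genes) and 0 lower, and 58 had a log2 difference above 0 (median 1.35). Hist2h3b was at 15.3, 41.2, 46.1 and 53.3 CPM in the pulldowns and 2.37, 2.78, 4.93 and 10.3 CPM in the inputs (log2 2.93 ± 0.69 SE, edgeR adjusted p = 0.00372). Hist1h2ac was at 5.48 to 7.50 CPM against 2.29 to 3.33 CPM (log2 1.11 ± 0.18 SE). Over the 61 genes the median CPM was 2.73 in pulldown 1 and 12.2 to 12.8 in pulldowns 2 to 4, and 1.37 to 2.51 in inputs 1 to 3 and 7.74 in input 4. The count moved with the libraries used. It was 47 of 55 without replicate 4 of every group, against 27.7% of all genes. With only pulldowns 1 and 2 there were 2 (3.28%, against 9.74%). Leaving out input 1 gave 5 higher (8.2%, against 13.7% of all genes). Leaving out input 2 or input 3 gave 6 (9.84%, against 14.2% and 13.7%), and input 4 gave 22 (36.1%, against 17.9%). Leaving out pulldown 4 gave 7 (11.5%, against 15.2%). Leaving out pulldown 2 or pulldown 3 gave 8 (13.1%, against 14.9% each time), and pulldown 1 gave 15 (24.6%, against 18.1%). The share higher was thus below that of all genes when any of inputs 1 to 3 or pulldowns 2 to 4 was left out. With the replicate number as a block 52 were higher, where all genes gave 23.8%. Histone genes are near-identical copies, so values of single genes are uncertain.

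Interferon-stimulated genes were set apart by input 4. Of 36 tested 0 passed in either direction with edgeR, with a median log2 of −0.56; 2 were lower at an unadjusted p under 0.05, and DESeq2 called 1 lower. Their summed level was 6432, 4004, 4251 and 4147 CPM in pulldowns 1 to 4 and 8375, 8504, 8396 and 788 CPM in inputs 1 to 4. Input 4 was thus below every other library, and the pulldowns lay below the other inputs. Without replicate 4 of every group 27 of 36 were lower and 3 higher, against 26.4% and 27.7% of all genes, and without replicate 4 of the scrambled groups alone 1 was lower. Rsad2, an antiviral enzyme, was at 69.0, 31.4, 34.8 and 31.9 CPM against 82.1, 87.7, 82.0 and 1.63 CPM (log2 −0.61 ± 0.97 SE, adjusted p = 0.66). In the latter fit replicate 4 of both miR-29b groups was kept.

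The recovered genes differed from the lost ones in the ratio of their nuclear to cytoplasmic RNA levels. The nuclear over cytoplasmic log2 ratio was taken from the 2 fraction inputs of the scrambled mimic, which are not among the 8 libraries compared. When the 11535 genes with a ratio were put in 5 equal sets, 2.77% of the most cytoplasmic set were higher in the pulldown and 42.4% lower. In the most nuclear set 51.5% were higher and 1.26% lower. The median log2 difference rose at each step, from −0.60 through −0.40, −0.09 and 0.27 to 0.75. For the most nuclear set it was 0.77 without replicate 4 of every group, 0.74 without pulldown 1 and 0.73 with only pulldowns 1 and 2. Across genes Spearman's rho was 0.614, and 0.612 with the ratio taken from the inputs of the miR-29b fractions; genes are not independent replicates, so no p is given. Malat1 had a nuclear over cytoplasmic log2 ratio of 7.0004, Neat1 of 6.37 and Dnm3os of 6.37, whereas Atp5f1 was at −1.44, Bnip3 at −2.10 and Rpl10 at −2.33. Lrrc8a (−0.61) and Edf1 (−1.75) were recovered although their ratios lay below the median of all genes (0.01). Each fraction library was scaled by itself, so the ratio ranks genes and does not give the amount of an RNA in each compartment.

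Long genes were recovered more than short ones. Protein-coding genes with a span in RefSeq were put in 5 equal sets, and 7.34% of the set with the shortest spans (up to 7.85 kb) were higher and 27.6% lower, while in the set with the longest (over 65.2 kb) 38.0% were higher and 8.70% lower. The genes called higher had a median span of 44.98 kb, those called lower 14.3 kb and all tested 20.2 kb. The span is that of the gene with its introns, not of the mature RNA. Within the most nuclear set of protein-coding genes the median log2 difference went from 0.39 for the shortest spans to 1.05 for the longest. Within the most cytoplasmic set it was −0.52 for the shortest and −0.68 for the longest, so the order by span was not seen there. Genes of higher mean level were lower in the pulldown, with a median of 0.45 in the set with the lowest level and −0.38 in that with the highest, a measure that shares libraries with the comparison.

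**Figure D4:**
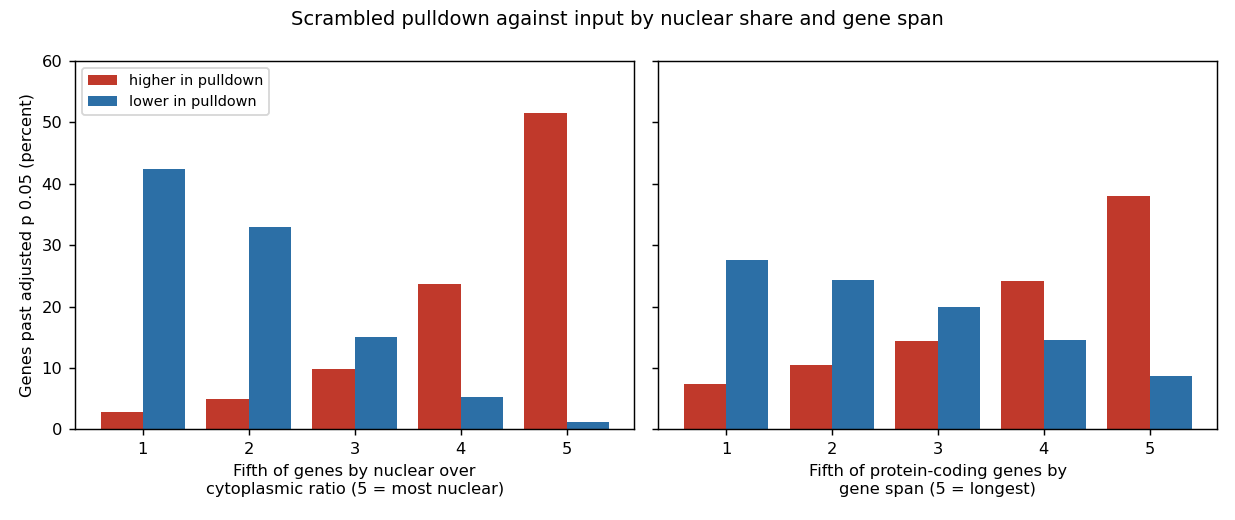
Percent of genes higher (red) or lower (blue) in the scrambled pulldown at an adjusted p under 0.05, in 5 equal sets of genes ordered by the nuclear over cytoplasmic ratio of the fraction inputs (left) or, for protein-coding genes, by gene span (right). The share higher goes from 2.77% to 51.5% with the nuclear ratio and from 7.34% to 38.0% with the span.

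The fractions themselves, with 1 library for each, gave values with no replicate check. In the cytoplasmic fraction 70.2% of the genes called higher in whole cells had a pulldown over input log2 ratio above 0, against 50.04% of all genes, and 71.0% of those called lower had one below 0. In the nuclear fraction 41.2% of the genes called higher were above 0, against 45.6% of all genes. Malat1 had a pulldown over input log2 ratio of 5.18 in the cytoplasmic fraction and 0.25 in the nuclear one, and Neat1 of 4.89 and −0.08. Dnm3os was at 3.38 and 0.01, and Lrrc8a at 3.63 and 0.32. The recovery of these 4 RNAs relative to other genes was thus seen in the cytoplasmic libraries and hardly in the nuclear ones. The ribosomal protein mRNAs had medians of 0.76 and 0.64 in the cytoplasmic and nuclear fractions, of opposite sign to that in whole cells. Nuclear-encoded respiratory chain genes likewise had medians of 0.41 and 0.60.

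The same RNAs were followed in the miR-29b pulldown over its own input, which shares no library with the scrambled comparison. There 28.4% of all genes were higher and 23.2% lower. Of the 2392 genes higher with the scrambled mimic 1332 (55.7%) were also higher with miR-29b, and 117 were lower. Of the 2246 lower genes 1317 (58.6%) were lower and 329 higher. Malat1 had a log2 of 2.94 with miR-29b against 4.80 with the scrambled mimic, a difference that did not pass (−1.86 ± 0.74 SE, edgeR adjusted p = 0.0788). Neat1 had 2.70 against 3.74, and there the difference did pass (−1.04 ± 0.35 SE, edgeR adjusted p = 0.0402). That difference did not pass without input 2 or any of pulldowns 2 to 4, each in turn (edgeR adjusted p = 0.0525 to 0.0712), and with the authors' library totals (log2 −0.70, edgeR adjusted p = 0.28). Vcan (1.63 against 2.49) and Dcp2 (2.31 against 2.09) were recovered with both mimics, and their differences did not pass.

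Other RNAs were recovered with the scrambled mimic and less or not with miR-29b. The difference between the mimics was negative at an adjusted p under 0.05 in 568 of the 2392 genes, against 9.21% of all genes. That share moved with the scaling, since over all genes 2192 differences were positive and 1190 negative, against 1662 and 2400 with upper-quartile factors and 2466 and 283 with the authors' library totals. Lrrc8a had a log2 of 0.21 with miR-29b, and the difference of −3.45 ± 0.24 SE passed (edgeR adjusted p = 1.15e-06). Edf1 was lower with miR-29b (log2 −1.36), with a difference of −2.98 ± 0.33 SE. Snrnp70 was at −0.23 (difference −1.97 ± 0.22 SE), Myh9, a nonmuscle myosin, at 0.11 against 1.32 (difference −1.20 ± 0.20 SE), and Hist2h3b at 0.14 (difference −2.80 ± 0.93 SE). The difference of Hist2h3b did not pass without any of inputs 1 to 3 or pulldowns 2 to 4, each left out in turn (edgeR adjusted p = 0.059 to 0.0916), nor did that of Myh9 with the authors' library totals (edgeR adjusted p = 0.0536). Among the genes lower with the scrambled mimic 622 of 2246 had a positive difference, against 17.0% of all genes. H3f3a was higher with miR-29b (log2 2.03 against −1.78), as were Psma5 (1.98 against −1.21) and Psma3 (1.37 against −1.05), and Tm2d1 stood at 0.38 against −2.04. Since the scrambled ratio is part of this difference, genes chosen for a high or low scrambled ratio tend to fall on that side, and the shares are a description.

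Reported and predicted targets of miR-29b were lower in the scrambled pulldown less often than all genes (17.4%). They were higher somewhat more often than all genes (18.5%), which did not hold in all subsets of the libraries. Of 60 reported targets tested 14 were higher (23.3%) and 2 lower (3.33%), with a median log2 of 0.55. Among 509 genes marked by the authors with a predicted site, 111 were higher (21.8%) and 53 lower (10.4%), with a median of 0.29. The reported targets gave 5 higher and 2 lower without replicate 4 of the scrambled groups, against 14.7% and 13.3% of all genes. With only pulldowns 1 and 2 they gave 4 and 1, against 9.74% and 8.27%. Genes with a predicted site gave 71 and 41, and 47 and 29, in the same subsets. The share higher was thus below that of all genes in both subsets for both lists. Without pulldown 1, 10 reported and 100 predicted targets were higher, against 18.1% of all genes. Without replicate 4 of every group there were 24 and 187, a larger share than the 27.7% of all genes. Mcl1, an anti-apoptotic protein and reported target, was at 49.0 to 60.7 CPM in the scrambled pulldown and 50.5 to 92.3 CPM in the input (log2 −0.50 ± 0.38 SE, adjusted p = 0.332), against 3.69 with miR-29b. Sparc, a matricellular glycoprotein, was lower with the scrambled mimic (332 to 382 CPM against 449 to 566 CPM; log2 −0.54 ± 0.15 SE, edgeR adjusted p = 0.0103). Snx24, a sorting nexin, was lower as well (log2 −1.17 ± 0.25 SE, edgeR adjusted p = 0.00204). Tet3, a demethylating dioxygenase, was at 29.3, 89.1, 85.4 and 77.5 CPM against 21.7 to 38.2 CPM and did not pass (log2 1.19 ± 0.76 SE, adjusted p = 0.239). Of common reference genes, Actb (log2 −0.21) and the snoRNA host Gas5 (log2 −0.02) did not pass, and Gapdh was lower (log2 −0.70 ± 0.22 SE, edgeR adjusted p = 0.0188) but not when input 4 was left out (log2 −0.55, adjusted p = 0.0686). Fth1, the ferritin heavy chain and among the most abundant mRNAs, was at 8628 to 11667 CPM against 16391 to 19779 CPM (log2 −0.81 ± 0.21 SE, edgeR adjusted p = 0.00781).

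**Figure D5:**
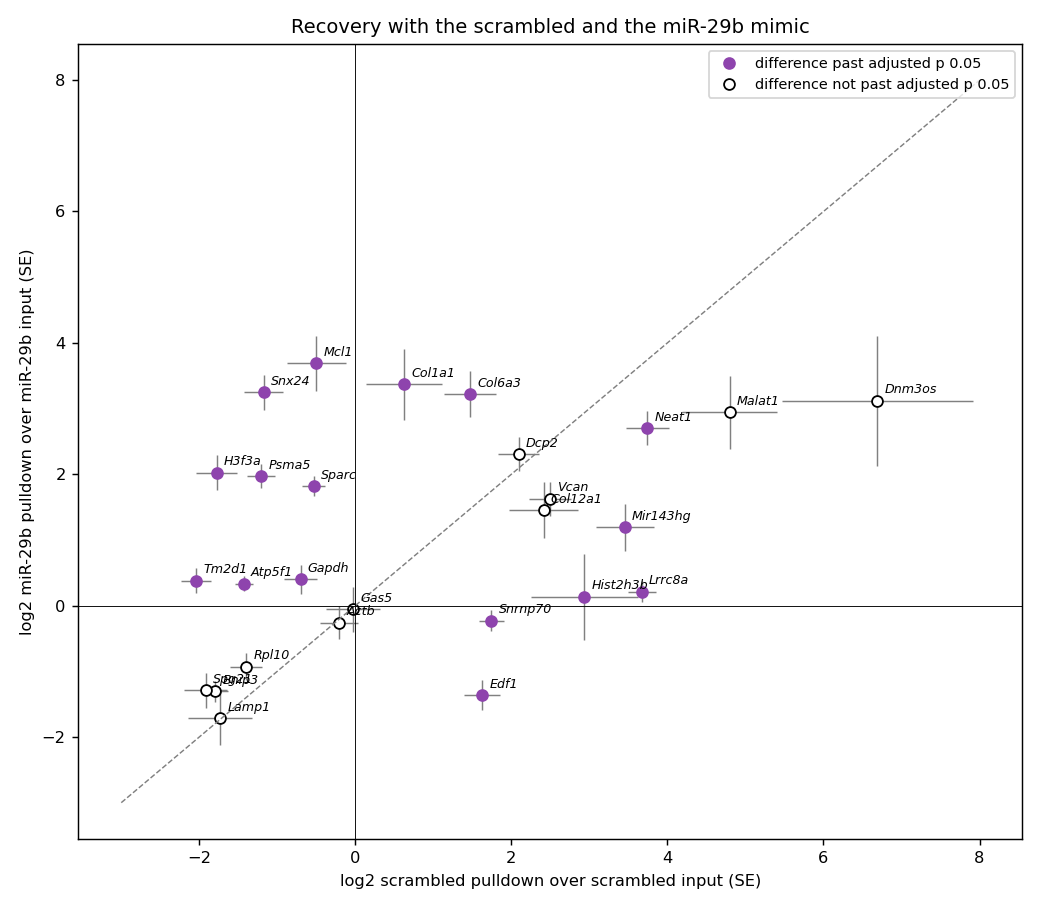
Log2 pulldown over input with the scrambled mimic (horizontal) and with miR-29b (vertical) for 27 named genes, with SE bars. Filled points mark genes whose difference between mimics passed an adjusted p of 0.05; Lrrc8a and Edf1 lie to the right of and below the dashed line of equal values, Mcl1, Sparc and H3f3a above it, and Malat1 and Dcp2 among those not past the threshold.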

How the data were processed

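Whole-number counts per gene and library came from the authors' deposited tables. Reads were aligned with STAR 2.3.0 to mm10, as far as the submitters' processing notes name tool and build. How reads were counted, on which annotation and strand, is not given in the sources used here. CPM values in the authors' deposited tables, each a count plus 1 over a library total above the listed counts, served only to recover that total. Of 14052 lines 518 repeats were dropped, which left 13534 genes. The 8 columns of the authors' deposited score were not used, nor was the second fraction table, a byte-for-byte copy of the first.

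Tests used edgeR 4.0.16 under R 4.3.3 (filterByExpr, TMM factors, quasi-likelihood) in 1 model of 4 groups and 16 libraries, and 619 genes fell under the filter. Adjusted p-values are two-sided, by Benjamini-Hochberg over all genes tested. Each SE is the size of the log2 difference divided by the square root of the F value of its test. It therefore rests on the spread in the model of 16 libraries, not on the 4 values of a group alone. For genes with few input counts it is a rough value. Fractions were described by log2 ratios with a prior count of 5. Positions and sequences are from RefSeq, GRCm38.p6, matched by symbol for 12548 tested genes.

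The naming rule took the 10 highest and 10 lowest differences past the threshold without overlap and at 5 CPM or more, the 8 most counted genes, up to 3 genes per biotype or list by p, and 12 fixed genes; not all are printed. Igf2r, Dnm3, Snhg3, Tug1, Pvt1 and 2900097C17Rik fell outside it and were chosen after their values were seen. Members, the 42 gene lists and tests were chosen with earlier results of these data known. Alternatives changed the scaling, the filter, the tool (DESeq2 1.42.0) or the set of libraries; only pulldowns 1 and 2, leaving out pulldown 1 with input 4, and the sets of genes by nuclear ratio and span were chosen after seeing the data. In counts simulated independently for each library over 12845 genes, 92% of 50 4-fold and 30% of 50 2-fold changes were recovered. There were 118 calls, of which 7.63% were false. Few genes were changed and no library was made to stand apart, so 7.63% is not the error rate of the real calls.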

Additional observations from a re-analysis of the deposited data

Results flagged for a closer look

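In 146 groups of 4 library values, 45 held a library apart from the other 3 relative to their spread, where chance flags about 1 in 20. Some flagged libraries differed little in size, as Neat1 in pulldown 1 (527.99 CPM, against 608 to 618 CPM in the others). Pulldown replicate 1 was such a library in 24 groups. It was high for Malat1 (6418.9 CPM), Mir143hg (8.18 CPM), Rnu3a (22.0 CPM), mt-Tq (16.9 CPM), mt-Ty (6.14 CPM), Gm25939 (14.3 CPM), Gm10718 (61.8 CPM), Gm26870 (236.72 CPM), Gm10801 (349.49 CPM), Gm10800 (2506.6 CPM) and Gm21738 (314.99 CPM). It was also high for Dgcr8 (19.5 CPM), Spg21 (71.2 CPM), Bnip3 (87.1 CPM), Lamp1 (468.67 CPM), Rsad2 (69.0 CPM) and Gm26924 (362350 CPM). It was low for Neat1 (527.99 CPM), Dcp2 (98.6 CPM), Prpf8 (37.9 CPM) and Col1a1 (248.18 CPM). As shares of its listed counts it was high for mitochondrial tRNAs (0.0085%), lincRNAs without Gm26924 (0.853%) and nuclear-retained RNAs (0.692%).

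Input replicate 4 stood off in 18 groups. It was high for Malat1 (289.05 CPM), Dnm3os (1.02 CPM), Gm26917 (14.7 CPM), Snora73b (1.11 CPM), Scarna2 (0.771 CPM), Prpf8 (31.2 CPM), Rpl10 (1790.5 CPM), Gm26924 (349790 CPM) and Gapdh (2107.5 CPM). It was low for Neat1 (19.9 CPM), Col6a3 (88.6 CPM), Spg21 (159.75 CPM), Lamp1 (635.5 CPM), Psma5 (100.4 CPM) and Rsad2 (1.63 CPM). Its shares were high for snoRNAs (0.00141%), lincRNAs without Gm26924 (0.170%) and nuclear-retained RNAs (0.0308%). Input replicate 1 stood off in 3 groups, with Gm10718 at 0.0382 CPM, Hist1h2ac at 2.29 CPM and a listed share of 77.4% of the authors' total.

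The log2 pulldown over input ratio differed between the mimics, by edgeR's test of the difference itself, in 27 of the genes named. With miR-29b minus scrambled, it was negative for Neat1 (−1.04), Mir143hg (−2.26), Gm10718 (−7.36), Gm21738 (−5.32), Hist2h3b (−2.80), Hist1h2ac (−1.15), Lrrc8a (−3.45), Snrnp70 (−1.97), Prpf8 (−1.31), Myh9 (−1.20), Edf1 (−2.98), Dgcr8 (−0.78), Ncl (−0.57) and Gm26924 (−1.92). The fitted values of Gm10718 rest on an input with 1 count in all and are no measure of size. The difference was positive for Col6a3 (1.75), Tm2d1 (2.42), H3f3a (3.80), Atp5f1 (1.77), Uqcrfs1 (0.87), Psma5 (3.18), Psma3 (2.42), Mcl1 (4.19), Col1a1 (2.74), Sparc (2.35), Snx24 (4.42), Rsad2 (5.60) and Gapdh (1.10).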

How the results depend on the processing

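Against 2392 higher and 2246 lower genes, asking for at least 2-fold left 1400 and 741, and only pulldowns 1 and 2 gave 1282 and 1089. Leaving out libraries gave 1788 to 3552 higher and 1723 to 3386 lower, with both maxima without replicate 4 of every group. For the difference between mimics, with 1190 lower genes, upper-quartile factors gave 2400, the authors' library totals 283 and only pulldowns 1 and 2 550; leaving out libraries gave 783 (without input replicate 3) to 2457 (without replicate 4 of every group), and 1311 without input replicate 4. Apart from the replicate block below, the other counts of calls stayed within 1.5 times.

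Same-numbered pulldowns and inputs were not taken as paired, since the correlations of their deviations from the group means were 0.314, 0.0564, −0.0544 and 0.253. The replicate number as a block gave 3070 higher and 2716 lower genes, and 1931 lower for the difference between mimics.

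Of 58 called named genes 51 kept the call under all 20 alternatives and none changed sign. Rmrp, Pcdh18, Lamp1, Sparc, mt-Rnr1, Fth1 and Gapdh lost it in 18 values, of which 8 were of Rmrp. With only pulldowns 1 and 2 the adjusted p (edgeR) was 0.0546 for Pcdh18, 0.0677 for mt-Rnr1, 0.0691 for Fth1 and 0.0666 for Sparc, and for Sparc 0.0591 with the authors' totals. Why these values moved was not tested. Pulldown replicate 1 held the fewest counts, so its low values are the least precise, and counts do not cover differences in how libraries were made.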
